A study of Mus musculus with 6 samples.

Results

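The genes described here are 53 transcription factors of embryonic development that Polycomb complexes are known to occupy in mouse embryonic stem cells. They were given as a list of names, chosen with earlier results of these data known, and the rule that finds them uses no signal value. Of the 53, 52 had a probe set assigned to a single gene in the table, out of 18193 such genes on the array, and Pax2 was not analysed here. Polycomb occupancy was not measured on these arrays, so the label rests on what is known of these genes. The arrays compared mouse embryonic stem cells of the R1 line that stably express a Pcl2 shRNA, 3 arrays of 1 clone, with R1 cells that stably express the mismatch control sequence of that shRNA, 3 arrays. Both groups were labelled undifferentiated, and the culture protocol gives a medium with serum and leukemia inhibitory factor, with G418 as the selecting drug. Each array was an Affymetrix Mouse Genome 430 2.0 chip hybridised with biotin-labelled RNA, and each value is a signal intensity scaled by the authors. Because all shRNA samples come from 1 clone, the shRNA and the clone cannot be told apart.

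Polycomb repressive complex 2 (PRC2) methylates lysine 27 of histone H3, and Pcl2, the product of Mtf2, is one of the accessory proteins that bring it to unmethylated CG-rich DNA. In embryonic stem cells the promoters of many developmental regulators carry this mark together with one of active promoters, and the genes are kept nearly silent until a lineage switches them on. The list holds homeobox, forkhead, paired box, T-box, zinc finger and basic helix-loop-helix factors that pattern the brain, spinal cord, heart, kidney, skeleton and gut.

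Mtf2, the targeted gene, had signals of 1048, 1167 and 870 on the shRNA arrays, against 1951, 1513 and 1704 on the mismatch control arrays. The groups did not overlap, and the log2 fold change was -0.74 (SE 0.17, limma adjusted p = 0.0157). This call did not hold without shRNA replicate 3 (-0.63, adjusted p = 0.0574) or without control replicate 1 (-0.75, adjusted p = 0.0519). Among 12 markers of embryonic stem cells, all were above background on every array. In shRNA cells 8 (66.7%) were higher and none was lower, where 4.46% of all genes tested were higher and 8.16% lower. The summed signal of the 12 was 40430 to 52235 on the shRNA arrays and 24002 to 29942 on the control arrays. In bulk RNA, fewer cells of a type and less RNA per cell cannot be told apart. Values of different arrays correlated at 0.961 to 0.977 within the groups and at 0.907 to 0.943 between them.

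Most of the developmental factors were dim in both groups. Their median signal was 17.6, against 71.4 over all genes on the array. The highest signal that any of 27 bacterial control probe sets gave was 20.3, and this is called background here. That no transcript was spiked in for these probe sets was assumed. Of the 52 factors, 12 (23.1%) were above background on all 6 arrays, against 62.6% of all genes. A further 14 (26.9%) were at or below background on all 6 arrays, against 18.2% of all genes, and 26 were above it on some arrays only. The 12 were Pax6, Nkx2-5, Foxa2, Foxf1, Six2, Irx2, Irx3, Msx1, Neurod1, En2, Meis2 and Tfap2a. The 14 were Lhx2, Nkx2-2, Nkx6-1, Tbx2, Foxc2, Dlx1, Dlx2, Emx2, Otx1, Olig2, Zic1, Neurog2, Pou3f2 and Nr2f1. Signals of different probe sets depend on their probes, so these counts describe detection and do not rank the genes by RNA amount.

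**Figure D1:**
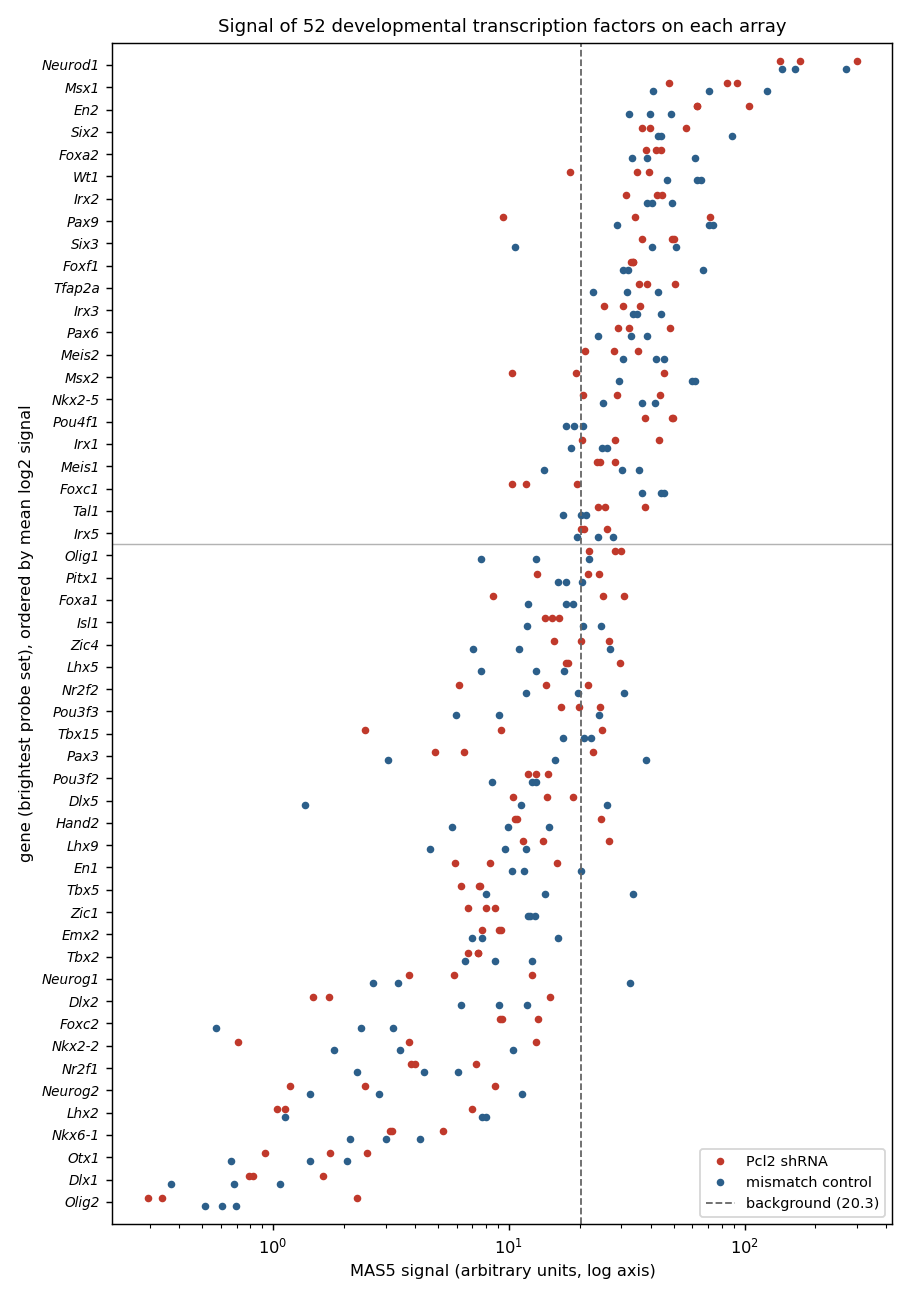
Signal intensity (log axis) of the 52 developmental factors on each array, 1 row per gene, with the 3 Pcl2 shRNA arrays drawn above the 3 mismatch control arrays in each row. The dashed line marks background at 20.3, and the grey line separates the 22 genes that passed the signal filter from the 30 that did not, most of which lie near or left of the dashed line.

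The test used genes whose mean log2 signal reached the 40th percentile of all probe sets, a signal of 20.2, and 22 of the 52 factors (42.3%) passed, against 72% of all genes. Irx5, with a mean of 22.9, was the dimmest factor inside this limit and Olig1, with 19.1, the brightest outside it. Of the 22 tested factors, 2 (9.09%) passed an adjusted p of 0.05 in limma, where 12.6% of the 13095 genes tested did. Pou4f1 was the 1 that rose, where 4.46% of all genes rose, and Foxc1 was the 1 that fell, where 8.16% of all genes fell. Both passed the filter only through the group where they were high: the control mean of Pou4f1 was 19.0 and the shRNA mean of Foxc1 13.9. The other 20 did not pass, with log2 fold changes of -0.93 to 0.80. The median log2 fold change was -0.06 over the 22 factors and 0.02 over all genes tested, and 10 factors had a positive and 12 a negative value. The factors called were thus no larger a share than among all genes. The 95% interval of the fold change excluded a 2-fold difference in either direction for 15 of the 20, and for the other 5 it reached 2-fold. This count depends on the offset of 7 added before the log2, which shrinks fold changes at low signals: with an offset of 1 the interval excluded a 2-fold difference for 9 of the 20, and with 21 for 16. The median standard error was 0.27 for the 22 factors and 0.22 for all genes tested, so the factors were measured somewhat less precisely than the typical gene.

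**Figure D2:**
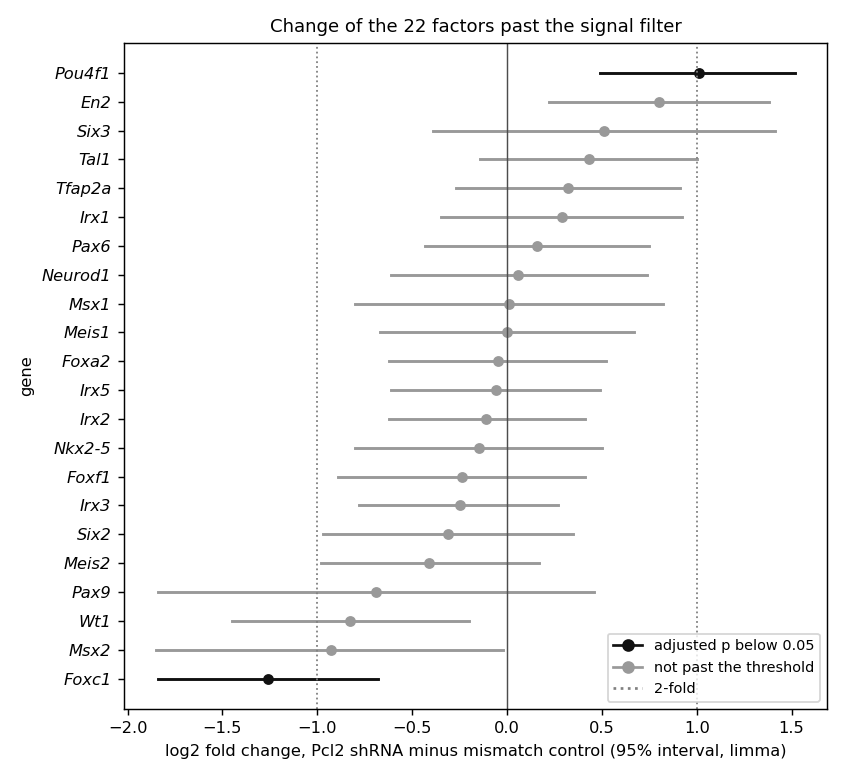
Log2 fold change, Pcl2 shRNA minus mismatch control, of the 22 developmental factors that passed the signal filter, with 95% intervals from limma. Pou4f1 (1.01) and Foxc1 (-1.26) are the factors past the threshold, and the intervals of the other factors include 0 except those of En2, Wt1 and Msx2.

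Pou4f1, a POU homeobox factor of sensory neurons, was the factor that rose. Its signals were 49.6, 49.0 and 37.8 on the shRNA arrays, against 20.7, 18.9 and 17.4 on the control arrays. The groups did not overlap, and 3 shRNA arrays but only 1 control array were above background. The means were 45.5 ± 6.64 in shRNA cells and 19.0 ± 1.65 in control cells (SD, n = 3 each). The log2 fold change, on the scale of log2(signal + 7) used throughout, was 1.01 (SE 0.23, limma adjusted p = 0.0181). A second probe set for Pou4f1 gave 28.1, 19.5 and 19.4 on the shRNA arrays, against 12.9, 11.7 and 6.95 on the control arrays. These groups did not overlap either, although only 1 of its values was above background. The call for Pou4f1 was lost without shRNA replicate 1 (0.95, adjusted p = 0.0652), without shRNA replicate 2 (0.95, adjusted p = 0.0828) and without control replicate 3 (0.96, adjusted p = 0.0513).

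Foxc1, a forkhead factor of mesoderm, blood vessels and the front of the eye, was the factor that fell. Its signals were 19.4, 11.8 and 10.3 on the shRNA arrays, against 45.5, 36.7 and 44.3 on the control arrays. All shRNA values were below background and all control values above it. The means were 13.9 ± 4.86 in shRNA cells and 42.2 ± 4.78 in control cells (SD, n = 3 each). The geometric mean of the control arrays was 2.07-fold the background, a ratio that leaves out their spread. The fitted log2 fold change was -1.26 (SE 0.26, limma adjusted p = 0.0107), and the call held without each array in turn. With signals floored at background the log2 fold change was -0.85 (limma adjusted p = 0.0163). The second Foxc1 probe set gave 2.81, 1.45 and 1.45 on the shRNA arrays, against 6.05, 2.87 and 13.0 on the control arrays. These groups did not overlap, but the probe set was below background on all 6 arrays. An exact two-sided permutation test over the arrays, which cannot go below 0.1 with 3 against 3, gave p = 0.1 for Pou4f1 and for Foxc1.

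The start regions of both genes are shown because Pcl2 and PRC2 are known for CG-rich promoters, and these are the 2 factors that changed. Neurod1, the factor with the highest mean signal, is shown beside them as one that did not pass the test. Each sequence is the 250 bases before the RefSeq transcript start, 5′ to 3′ on the strand of the gene, in mouse build GRCm38.p6, with every CG in capitals. The windows are chr14:104468000-104468249 on the minus strand for Pou4f1, chr13:31806396-31806645 on the plus strand for Foxc1 and chr2:79456637-79456886 on the minus strand for Neurod1.
Pou4f1: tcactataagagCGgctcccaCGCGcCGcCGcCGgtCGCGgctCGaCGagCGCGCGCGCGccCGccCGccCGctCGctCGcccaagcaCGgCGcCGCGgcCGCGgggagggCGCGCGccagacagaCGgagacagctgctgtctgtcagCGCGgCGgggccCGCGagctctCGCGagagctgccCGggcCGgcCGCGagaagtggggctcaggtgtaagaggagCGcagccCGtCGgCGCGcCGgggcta
Foxc1: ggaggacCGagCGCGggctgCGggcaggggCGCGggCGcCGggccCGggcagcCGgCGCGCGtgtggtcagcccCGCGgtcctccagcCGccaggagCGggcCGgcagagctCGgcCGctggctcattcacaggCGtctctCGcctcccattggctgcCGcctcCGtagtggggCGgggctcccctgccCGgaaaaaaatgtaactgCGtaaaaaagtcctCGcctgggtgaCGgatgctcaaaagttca
Neurod1: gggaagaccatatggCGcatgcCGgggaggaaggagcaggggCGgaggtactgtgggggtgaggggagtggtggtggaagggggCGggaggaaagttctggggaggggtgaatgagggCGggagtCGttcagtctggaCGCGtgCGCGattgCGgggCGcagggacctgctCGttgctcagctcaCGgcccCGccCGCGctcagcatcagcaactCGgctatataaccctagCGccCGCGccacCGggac
The Pou4f1 window holds 47 CG, the Foxc1 window 29 and the Neurod1 window 22. Of the genes on the array with such a window, 99.7% had fewer CG than Pou4f1, 91.1% fewer than Foxc1 and 78.3% fewer than Neurod1. The gene that rose and the gene that fell thus both had CG-rich windows.

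Such windows could be had for 37 of the 52 factors and for 14452 genes on the array. The median number of CG in 250 bases was 16 for the factors (quartiles 10 and 24, range 1 to 47) and 13 for all genes (quartiles 5 and 20, range 0 to 56), and 22 of the 37 factors lay above the median of all genes. The motif GCG, counted on both strands as GCG or CGC, had a median of 13 for the factors and 9 for all genes. It overlaps CG, since every GCG or CGC contains one. At least 1 CG was present in 44 of the 44 windows of these factors, some of which have several starts, and in 96.9% of all windows. At least 1 GCG or CGC was present in 43 of the 44 (97.7%) and in 88.8% of all windows. The median GC content was 60.8% for the factors and 57.6% for all genes. These are descriptions of the letters, and binding was not measured.

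**Figure D3:**
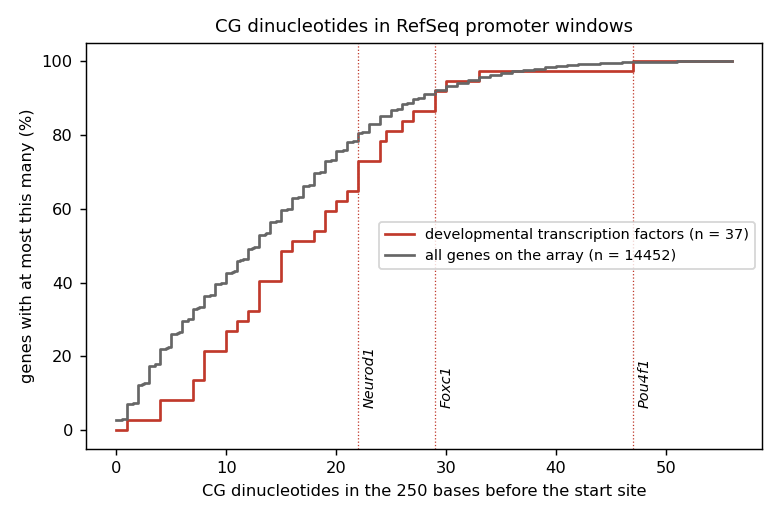
Share of genes (percent, vertical axis) with at most a given number of CG in the 250 bases before the RefSeq start (horizontal axis), for the 37 developmental factors with such a window and for 14452 genes on the array. The curve of the factors runs to the right of that of all genes up to about the 29 CG of Foxc1, and dotted lines mark Neurod1, Foxc1 and Pou4f1.

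En2, an engrailed homeobox factor of the midbrain and hindbrain, came closest to Pou4f1 in its pattern. Its signals were 104, 63.1 and 62.6 on the shRNA arrays, against 48.9, 39.8 and 32.2 on the control arrays. Each shRNA array was above each control array, with means of 76.6 ± 23.8 in shRNA cells and 40.3 ± 8.40 in control cells (SD, n = 3 each). The log2 fold change was 0.80 (SE 0.26), which did not pass (limma adjusted p = 0.0724) and passed with the replicate number as a block (adjusted p = 0.0172). The other factors of the developing eye and brain that were tested were Six3, a factor of the forebrain and retina, and Pax6, which directs eye formation. Six3 had 50.3, 49.0 and 36.8 on the shRNA arrays, against 40.5, 10.6 and 51.3 on the control arrays. These values overlapped, and control replicate 2 stood lowest (log2 fold change 0.51, adjusted p = 0.483). Pax6 had a log2 fold change of 0.16 and did not pass. The remaining 9 of the 12 eye and brain factors, among them Lhx2, Otx1, Emx2, Dlx1, Dlx2 and En1, were too dim to enter the test.

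Neurod1, a basic helix-loop-helix factor that drives neuronal differentiation, gave 300, 141 and 172 on the shRNA arrays, against 164, 144 and 270 on the control arrays. The groups overlapped fully, with means of 204 ± 84.5 in shRNA cells and 193 ± 67.7 in control cells (SD, n = 3 each) and a log2 fold change of 0.06 (limma adjusted p = 0.923). Its other probe set gave 0.04. Tfap2a, an AP-2 factor of the neural crest, had 38.5, 50.8 and 35.6 on the shRNA arrays, against 31.8, 22.7 and 42.9 on the control arrays. The groups overlapped (0.32, adjusted p = 0.508), and another Tfap2a probe set that passed the filter had the opposite sign, at -0.17. Of 13 neural tube and neural crest factors, 3 were tested, Pou4f1, Neurod1 and Tfap2a, and the 10 others were dim, among them the spinal cord factors Nkx2-2, Nkx6-1 and Olig2 and the neurogenic factors Neurog1 and Neurog2.

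Wt1, a zinc finger factor of the developing kidney and gonad, had 39.3, 35.1 and 18.2 on the shRNA arrays, against 63.1, 47.1 and 65.2 on the control arrays. The groups did not overlap, with means of 30.9 ± 11.2 in shRNA cells and 58.5 ± 9.91 in control cells (SD, n = 3 each). The log2 fold change of -0.83 (SE 0.28) did not pass (limma adjusted p = 0.0861) and lay at the threshold itself with the replicate block (adjusted p = 0.0499957). Without shRNA replicate 3 it was -0.56. Wt1 is represented by 1 probe set of a type that can match several transcripts. The probe sets that stand for Msx1, Meis2 and Tfap2a are of this type too. Six2, which maintains nephron progenitors in the kidney, had 36.8, 39.6 and 56.4 on the shRNA arrays, against 88.6, 44.2 and 43.1 on the control arrays. Control replicate 1 stood above all others and the groups overlapped (-0.31, adjusted p = 0.578).

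Msx2, a homeobox factor of the skull and limb bud, had the lowest log2 fold change among the factors that did not pass, -0.93 (SE 0.41, limma adjusted p = 0.18). Its signals were 45.4, 19.3 and 10.3 on the shRNA arrays, against 61.9, 29.2 and 59.6 on the control arrays. The groups overlapped, since shRNA replicate 1 lay above control replicate 2, although each shRNA array was below the control array of the same number. The value passed without shRNA replicate 1 (-1.37, adjusted p = 0.0475), was -0.57 without shRNA replicate 3 (adjusted p = 0.437), and did not pass with the replicate block (adjusted p = 0.0673). Its relative Msx1 had 93.3, 47.8 and 84.2 on the shRNA arrays, against 124, 41.0 and 70.9 on the control arrays. Both groups spread over the same range, with a log2 fold change of 0.01 (adjusted p = 0.992). Pax9, a paired box factor of teeth and vertebrae, had 34.2, 71.3 and 9.41 on the shRNA arrays, against 28.8, 73.3 and 70.4 on the control arrays. Its arrays differed more within the groups than between them (-0.69, adjusted p = 0.457).

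**Figure D4:**
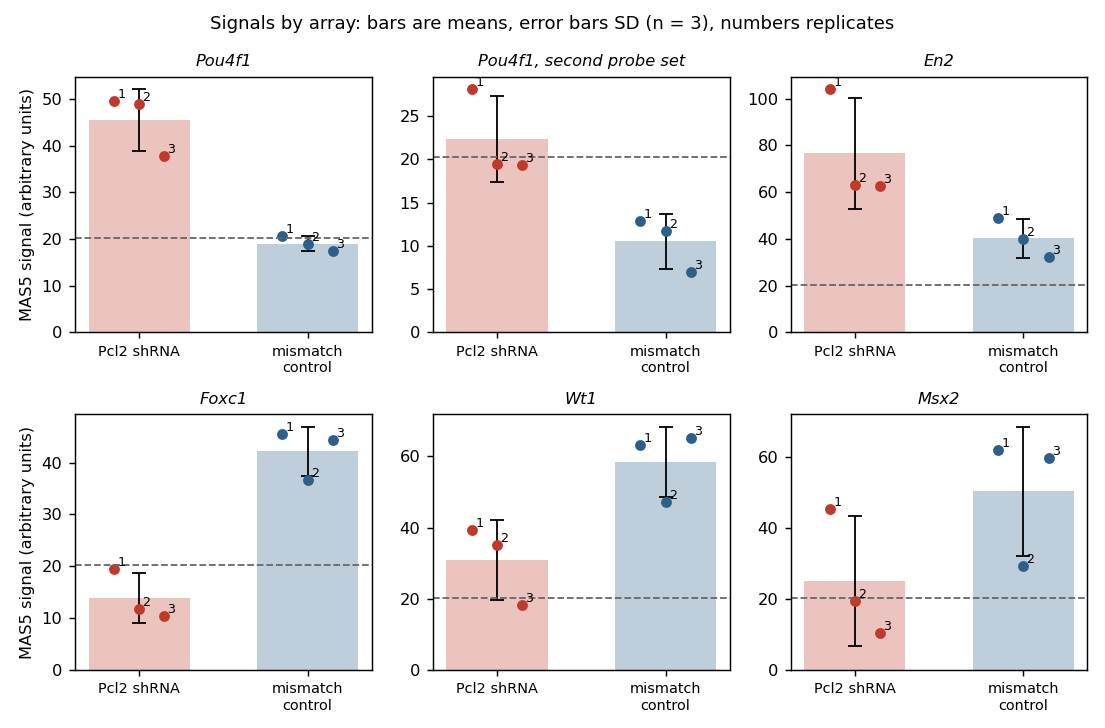
Signal intensity on each array for Pou4f1 (both probe sets), En2, Foxc1, Wt1 and Msx2, with Pcl2 shRNA arrays left of mismatch control arrays in each panel, points for arrays numbered by replicate, bars for the means, error bars for the SD (n = 3) and a dashed line at background. The groups are apart in every panel but that of Msx2, where shRNA replicate 1 lies above control replicate 2.

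In the heart and blood group, Tal1, a basic helix-loop-helix factor of blood stem cells, had 23.8, 37.7 and 25.7 on the shRNA arrays, against 20.2, 21.2 and 17.0 on the control arrays. The groups did not overlap, but the log2 fold change of 0.43 (SE 0.26) did not pass (limma adjusted p = 0.329). Nkx2-5, a homeobox factor of the heart, had a value of -0.15 and did not pass. The gut endoderm factor Foxa2 had 42.2, 44.2 and 38.3 on the shRNA arrays, against 61.7, 38.7 and 33.3 on the control arrays. The shRNA arrays lay within the range of the control arrays (-0.05, adjusted p = 0.928). Foxf1, a forkhead factor of gut and lung mesenchyme, had 33.6, 32.9 and 33.5 on the shRNA arrays, against 66.9, 32.1 and 30.4 on the control arrays. Control replicate 1 alone stood apart (-0.24, adjusted p = 0.668), and the second Foxf1 probe set gave -0.40.

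The Iroquois family, homeobox factors that pattern neural tissue, heart and limb, was the family of 4 or more factors in which every listed factor was tested. Irx1, Irx2, Irx3 and Irx5 had log2 fold changes of -0.25 to 0.29, and none passed. Irx2, with the highest signal of the 4, had 42.4, 31.3 and 44.5 on the shRNA arrays, against 40.6, 38.6 and 49.2 on the control arrays. The groups overlapped (-0.11, limma adjusted p = 0.824). The Hox cofactors Meis1 and Meis2 had 0.00 and -0.41 and did not pass. All 4 LIM homeobox factors, all 3 T-box factors and all 3 distal-less factors on the list were too dim for the test.

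Without the signal filter, all 52 factors could be fitted, and 3 (5.77%) passed an adjusted p of 0.05 in limma, where 7.86% of the 18193 genes did. Higher were 2, Pou4f1 and Foxc2, a forkhead factor of lymphatic vessels, where 2.7% of all genes were higher, and lower was Foxc1, where 5.16% of all genes were lower. Foxc2 had 9.32, 9.15 and 13.3 on the shRNA arrays, against 2.35, 0.57 and 3.24 on the control arrays. The groups did not overlap, but every value was below background, so no fold is given for the adjusted p of 0.0289. With the replicate number as a block, 4 of the 22 tested factors (18.2%) passed, where 23.8% of all genes did. Pou4f1 and En2 were higher, where 9.97% of all genes were, and Foxc1 and Wt1 were lower, where 13.8% of all genes were. With the block and no filter, 4 of the 52 (7.69%) passed, where 14.4% of all genes did. Pou4f1, En2 and Foxc2 were higher, where 5.89% of all genes were, and Foxc1 was lower, where 8.46% of all genes were. Under each of these fits the share of factors that passed in either direction was below the share of all genes. By direction this did not always hold, since the 2 of 52 higher without the filter were a larger share than 2.7%.

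The groups of 3 arrays did not overlap for 5 of the 22 tested factors (22.7%), where they did not for 31.2% of all genes tested. Pou4f1, En2 and Tal1 were the 3 higher in shRNA cells, where 14.5% of all genes were, and Foxc1 and Wt1 the 2 lower, where 16.7% were. Like Pou4f1 and Foxc1, Tal1 passed the filter only through the group where it was high, with a control mean of 19.4. Over all 52 factors the groups did not overlap for 10 (19.2%), where the share of all genes on the array was 26.3%. The 5 added were Foxc2, Olig1 and Lhx5 with higher and Tbx5 and Zic1 with lower values in shRNA cells, all too dim for the test. This made 6 higher, where 12.8% of all genes were, and 4 lower, where 13.4% were. Single arrays could reach above background in a dim gene: the neurogenic factor Neurog1 had 32.8 on control replicate 1 and 12.6 or less on every other array.

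Replicate 1 tended to be the highest array of its group for these factors. It was the highest shRNA array for 11 of the 22 tested factors (50%), against 29.5% of all genes tested, and the highest control array for 12 (54.5%), against 33%. In both groups at once it was the highest for 8 factors (36.4%), against 15.4% of all genes. The 8 were Pax6, Foxc1, Foxf1, Msx1, Msx2, Pou4f1, En2 and Meis1. Of the 11 fibroblast and feeder cell markers on the array, replicate 1 was the highest in both groups for 6, Col1a1, Col1a2, Col3a1, Thy1, Postn and Acta2, and not for the other 5, Lum, Dcn, Pdgfrb, Twist2 and Tagln. Whether these patterns are related was not tested.

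**Figure D5:**
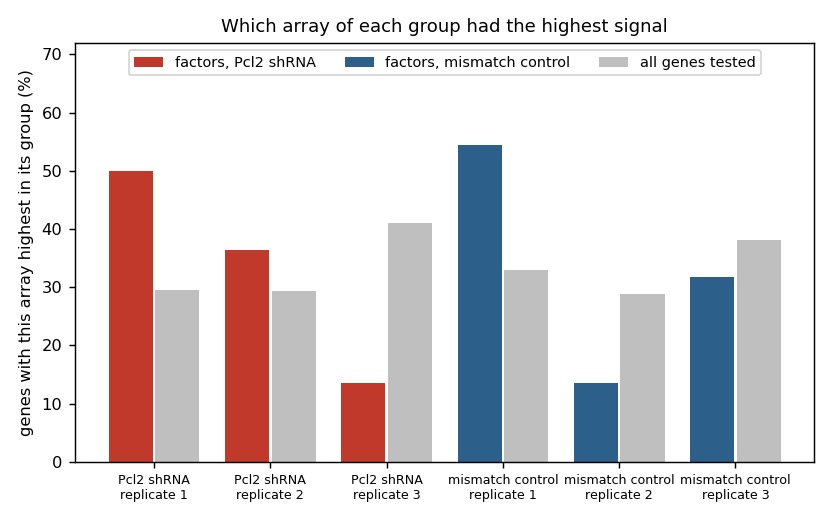
Share of genes (percent) for which replicate 1, 2 or 3 was the highest array of its group, for the 22 tested developmental factors and for all 13095 genes tested, with the bars of the Pcl2 shRNA arrays left of those of the mismatch control arrays and grey bars for all genes. Replicate 1 was highest for 50% and 54.5% of the factors, against 29.5% and 33% of all genes.

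Several of the factors are neighbours on a chromosome, within 1 Mb of each other, in 12 pairs. In 4 pairs both genes were tested. Irx1 and Irx2 had log2 fold changes of 0.29 and -0.11, Six2 and Six3 of -0.31 and 0.51, and Pax6 and Wt1 of 0.16 and -0.83. Irx3 and Irx5 had -0.25 and -0.06, and none of these 8 genes passed the test without the block. The signs of such values are not settled: Irx2 had 0.03 without shRNA replicate 2, and Six3 had -0.02 without control replicate 2. Of the pair Foxc2 and Foxf1, only Foxf1 was bright enough to be tested, and of Dlx1 and Dlx2, and of Olig1 and Olig2, neither was.

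A further 97 developmental transcription factors not on the list were examined for comparison, with 86 on the array and 43 bright enough to test. Their Polycomb occupancy was not measured either, so they cannot be taken as genes without Polycomb. Of the 43, 1 rose and 4 fell (11.6%), where 12.6% of all genes passed, and their median log2 fold change was -0.05. With the replicate block 4 were higher and 7 lower (25.6%), where 23.8% of all genes passed. The T-box factor Tbx3, which embryonic stem cells themselves express, rose, with 640, 627 and 583 on the shRNA arrays, against 134, 119 and 91.0 on the control arrays (2.37, SE 0.18, limma adjusted p = 5.4e-05). Pou3f1, a POU factor of early epiblast and neural cells, fell, with 138, 104 and 70.0 on the shRNA arrays, against 843, 921 and 731 on the control arrays (-2.96, SE 0.23, adjusted p = 6.08e-05). The listed members of its family, Pou3f2 and Pou3f3, were too dim to test. Phox2a, a factor of autonomic neurons, fell to a mean of 37.2 ± 4.63 on the shRNA arrays, against 114 ± 37.0 on the control arrays (-1.42, SE 0.25, adjusted p = 0.00471). Cdx2, a factor of trophectoderm and hindgut, was below background on all shRNA arrays, against 145, 29.2 and 97.1 on the control arrays. Its log2 fold change was -2.56 (SE 0.53, limma adjusted p = 0.0104), and -1.61 with signals floored at background (adjusted p = 0.0297). Zic5, a neural zinc finger factor, had -0.68 (SE 0.19, adjusted p = 0.0448), a call lost without any 1 of 5 of the 6 arrays, with values of -0.69 to -0.56, and also with quantile normalization (adjusted p = 0.0711), with median centring (0.0506), without the filter (0.0611) and without the eBayes trend (0.0677).

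Markers of other cell types moved in part with the groups. Of all genes tested, 12.6% passed in either direction, and 23.8% with the replicate block. Of 8 tested fibroblast and feeder cell markers, 3 (37.5%) were lower in shRNA cells and none higher, and 5 (62.5%) were lower with the replicate block. The summed signal of the 11 on the array was 585 to 1407 on the shRNA arrays and 3484 to 5664 on the control arrays, with most of the gap in Acta2, with means of 394 and 1390, and Tagln, with means of 88.1 and 2376, in shRNA and control cells. Col1a2, Thy1, Acta2 and Tagln were above background on all 6 arrays, and Lum and Dcn on none. Of 3 tested endoderm markers 1 (33.3%), Dab2, was lower. The summed signal of the 10 on the array was 214 to 259 on the shRNA arrays and 317 to 438 on the control arrays. Dab2 had means of 56.7 in shRNA cells and 211 in control cells, while Gata4 had 45.2 and 44.9 and Gata6 41.4 and 41.1. Afp, Ttr and Apoa1 were at or below background. Of 11 tested neural markers, 2 were higher, Mapt and Elavl3, and 4 lower, Nes, Nefl, Nefm and Syp (54.5%). The summed signal of the 13 on the array was 4424 to 4466 on the shRNA arrays and 4081 to 5388 on the control arrays. Most of this sum was Stmn2, with means of 3383 in shRNA cells and 2620 in control cells, so it does not show the changes of the dimmer markers. Of 7 tested mesoderm and muscle markers, 1 was higher and 1 lower (28.6%). The summed signal of the 11 on the array was 467 to 607 on the shRNA arrays and 353 to 652 on the control arrays. The part of these cells in the values of Foxc1, Pou4f1 and the other factors was not tested.

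Of the core PRC2 genes, Ezh2 had a log2 fold change of 0.52 (limma adjusted p = 0.0433), Eed of 0.79 (adjusted p = 0.0224) and Suz12 of 0.72 (adjusted p = 0.0196), all higher in shRNA cells. Of the 12 tested PRC2 genes, 4 were higher and 1, Mtf2, was lower (41.7%), where 12.6% of all genes tested passed. Each of the 3 core calls was lost without some arrays: that of Ezh2 without any 1 of 5, down to 0.45, that of Eed without shRNA replicate 1 or 2 or control replicate 3, down to 0.59, and that of Suz12 without shRNA replicate 2 or 3 or control replicate 1, down to 0.62. The call of Ezh2 was also lost with median centring (limma adjusted p = 0.116), without the filter (0.0612) and without the eBayes trend (0.092). That of Eed was lost with median centring (0.0574) and without the trend (0.0509).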

How the data were processed

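RNA of 6 samples was measured on 1 array each. The deposited values are signal intensities that the authors made with MAS5 in GCOS 1.4, per the submitters' processing notes and the labels' protocols, with the build not given in the sources used here. On each array their mean after trimming 2% at each end was 150.001. All value columns belong to samples.

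The brightest single-gene probe set by mean log2 signal stood for a gene. Of 45101 probe sets, 34945 had 1 gene, 932 several, 9160 none and 64 were controls, by an annotation that can be old. log2(signal + 7) was fitted with limma 3.58.1 in R 4.3.3 (eBayes with trend) on 13095 genes past the filter, at a Benjamini-Hochberg adjusted p of 0.05. The labels name biological replicates without saying that cultures were separate, so p-values measure the spread between these samples. The number of arrays limits the precision.

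The members and lists, and the background level, were chosen with earlier results of these data known. Full values are given for members past the threshold with the filter, without it or with the block, tested members whose groups did not overlap, and the 12 brightest. Deviations from the group mean correlated at 0.25 to 0.397 between same-numbered samples of the groups and at -0.382 to -0.001 otherwise. The replicate numbers were therefore treated as pairs in the alternative fits with the replicate block. The main fit did not use them, so its p-values are unpaired. The labels do not state this pairing. Alternatives changed the scaling, pseudocount, filter, probe set rule, eBayes options, weights, block and arrays. Promoters are from RefSeq, GRCm38.p6. Members without an entry there have no sequence shown.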

Additional observations from a re-analysis of the deposited data

How the results depend on the processing

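Pou4f1 and Foxc1 were the factors called with the signal filter at the 40th percentile, and the counts are small enough that 1 gene moves them. The number of factors higher in shRNA cells was 1, and became 2 without the filter, 2 with the replicate block, 3 with the replicate block and no filter (chosen after seeing the data) and 0 with the filter at the 60th percentile. The number lower was 1, and became 2 with the replicate block and 0 at the 60th percentile, a filter that removes dim genes such as Pou4f1 and Foxc1. Leaving out 1 array at a time gave 0 to 1 higher and 1 to 2 lower. Over all genes, 584 were higher, and 1305 with the replicate block, 1072 with the block and no filter, 885 with array weights and 261 to 577 with 1 array left out. Lower were 1068, and 1808 with the replicate block and 718 to 1021 with 1 array left out. The cause was not tested. The 16 factors given in full had 302 alternative fits, of which 294 kept the direction and side of the threshold, or lay within the replicate spread. In 3 Pou4f1 lost its call, in 4 En2, Msx2 or Wt1 gained one, and Tfap2a moved to -0.17 without probe sets that can match several transcripts. The sign turned in 14 of the 302 fits, for 7 factors (Foxa2, Foxf1, Irx2, Msx1, Neurod1, Six3 and Tfap2a), none past the threshold in either fit, and no called value changed sign. Of the other genes named, Mtf2, Ezh2, Eed, Suz12 and Zic5 lost their calls in 27 fits in all. The block changed no other call among the 22 tested factors. Signals near background limit the 30 untested factors.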
